A study of Mus musculus with 16 samples.

Results

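The subunits of the transcription factor NF-kappaB, the inhibitory proteins that bind them and the ubiquitin-editing enzyme A20 were followed in ribosome-bound RNA of mouse podocytes and glomeruli. The 10 genes were Nfkb1, Nfkb2, Rel, Rela and Relb (subunits), Nfkbia, Nfkbib, Nfkbie and Nfkbiz (inhibitors) and Tnfaip3 (A20). They were taken by symbol, through the accession that the array design gives for each probe, and the set was drawn up with earlier results of these arrays known. All 10 had a probe among the 20145 genes that could be named on the array. Of these 10, 9 passed the filter on dim probes and were tested, among 14565 genes in all, and Rel was above background on 0 of 16 arrays.

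The podocytes carried a ribosomal tag that appears only where Cre recombinase is made. The cross joined RiboTag to Nphs1-Cre, where the promoter of nephrin, a slit diaphragm protein, drives Cre, so an antibody to the HA tag recovers polysomes from cells in which that promoter has been active. The normal podocyte group (4 arrays) was such precipitated RNA from Nphs1-RiboTag mice without toxin, and the normal glomerular group (4 arrays) was RNA of polysomes from Nphs1-RiboTag mice that had not been precipitated. The day 4 and day 7 groups (4 arrays each) were precipitated podocyte RNA from Nphs1-RiboTag-NEP25 mice. The NEP25 transgene puts human CD25 on the podocyte surface, where the immunotoxin LMB2 binds, enters and stops protein synthesis. These mice received a single tail vein dose of LMB2 at 0.625 ng per g of body weight, 4 or 7 days before the RNA was taken. All mice were on the C57BL/6N background. The series text gives the uninjured mice as Nphs1-RiboTag without NEP25, so the NEP25 transgene and the toxin cannot be told apart in a comparison with normal podocytes. Neither the age of the animals nor whether each array holds a separate animal is given in the labels, so p-values measure only the spread between these samples, which may be technical.

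NF-kappaB proteins work as dimers. At rest, IkappaB proteins such as those of Nfkbia, Nfkbib and Nfkbie hold the dimers in the cytoplasm until the IKK kinases mark them for destruction, and in a second branch the kinase NIK (Map3k14) drives the cutting of the Nfkb2 precursor, whose product pairs with RelB. Genes of several subunits and inhibitors are themselves NF-kappaB targets, which makes the pathway a textbook case of feedback, and in podocytes it is known as a route by which injury turns on inflammatory genes.

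The promoters shown are those of 4 genes that rose after LMB2 and, for comparison, that of Rela, which moved little, because NF-kappaB dimers bind DNA at such sites. Nfkbib, which also rose (2.06-fold at day 4), had no match, as given after the sequences. Promoter sequences came from RefSeq (GRCm38.p6), which gave 10 promoter windows for 7 of the 10 genes. Each line runs 5′ to 3′ on the strand of the gene and covers the 250 bases before the start, and capitals mark matches to the NF-kappaB (kappaB site) consensus on either strand. The windows are chr19:46304487-46304736 for Nfkb2 (plus strand, the first of 3 windows), chr12:55492648-55492897 for Nfkbia (minus strand), chr17:45555450-45555699 for Nfkbie (plus strand), chr10:19015411-19015660 for Tnfaip3 (minus strand, 1 of 2 windows) and chr19:5637291-5637540 for Rela (plus strand).
Nfkb2: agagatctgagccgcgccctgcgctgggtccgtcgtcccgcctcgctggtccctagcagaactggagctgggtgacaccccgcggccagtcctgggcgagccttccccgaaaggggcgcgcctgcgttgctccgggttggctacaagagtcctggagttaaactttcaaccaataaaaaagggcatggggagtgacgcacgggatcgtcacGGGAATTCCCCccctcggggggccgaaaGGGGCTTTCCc
Nfkbia: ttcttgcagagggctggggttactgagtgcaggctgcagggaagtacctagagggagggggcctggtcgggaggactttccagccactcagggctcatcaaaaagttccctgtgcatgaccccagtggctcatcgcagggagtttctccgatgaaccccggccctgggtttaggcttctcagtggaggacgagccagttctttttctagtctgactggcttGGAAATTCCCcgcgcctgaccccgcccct
Nfkbie: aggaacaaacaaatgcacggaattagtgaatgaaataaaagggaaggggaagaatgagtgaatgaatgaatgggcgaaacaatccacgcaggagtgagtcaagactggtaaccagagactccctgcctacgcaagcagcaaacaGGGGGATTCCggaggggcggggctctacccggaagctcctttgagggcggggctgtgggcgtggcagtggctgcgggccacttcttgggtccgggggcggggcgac
Tnfaip3: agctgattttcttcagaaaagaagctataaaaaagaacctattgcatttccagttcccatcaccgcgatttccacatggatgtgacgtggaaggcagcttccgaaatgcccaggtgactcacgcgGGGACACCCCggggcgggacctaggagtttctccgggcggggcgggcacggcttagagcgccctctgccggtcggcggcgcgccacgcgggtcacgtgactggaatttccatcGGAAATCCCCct
Rela: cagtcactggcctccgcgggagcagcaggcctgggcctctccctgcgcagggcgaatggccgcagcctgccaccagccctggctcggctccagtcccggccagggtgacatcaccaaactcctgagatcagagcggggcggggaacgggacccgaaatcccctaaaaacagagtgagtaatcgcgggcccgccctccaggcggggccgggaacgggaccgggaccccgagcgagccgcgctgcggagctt

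In the Nfkb2 window, matches began 39, 38 and 11 bases before the start, and those at 39 and 38 overlap. The match of Nfkbia began 29 bases before the start and that of Nfkbie 106 bases before it. The Tnfaip3 window held matches that began 125 and 12 bases before the start. The other Nfkb2 windows (chr19:46305445-46305694 and chr19:46305680-46305929, plus strand) held 1 match each, and the Rel window (chr11:23770970-23771219, minus strand) held overlapping matches at 92 and 91. No match was found in the windows of Rela and Nfkbib (chr7:28766645-28766894, minus strand) or in the other window of Tnfaip3 (chr10:19011964-19012213, minus strand), which says only that these letters are not in those windows. In all, 7 of the 10 windows held a match, against 1281 of 32851 promoters (3.9%) of the same length, and 5 of the 7 genes, against 1204 of 27025 genes. Genes with a match included Rel, which was not above background, and a gene without one, Nfkbib, was called higher at both times. A match is a description of the sequence and not a bound site.

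Each array held 59305 spots other than controls, between 49.3% and 57.5% of them well above background, and arrays of a group correlated at 0.972 to 0.993. All 15 podocyte markers were higher in podocyte than in glomerular RNA by limma, with a median log2 difference of 2.30, while all 12 endothelial, 10 mesangial and smooth muscle and 10 proximal tubule markers tested were lower. Against normal podocytes, 5 podocyte markers were lower and 1 higher at day 4, and 12 were lower and 1 higher at day 7 (median -0.99). Of the 14 leukocyte markers listed 12 were tested, and 9 of these were lower in podocyte RNA (median -3.95). The level of the leukocyte list, a mean over its 12 tested genes with normal podocytes set to 0, was -0.31 to 0.60 on normal podocyte arrays, 2.81 to 3.98 on glomerular arrays, -0.36 to 0.99 at day 4 and 0.26 to 0.75 at day 7. Proximal tubule markers stood high on replicate 1 of day 4 (1.59) and replicate 4 of day 7 (2.24), on the same scale, and on replicate 4 of the normal podocytes (1.12). Both normal groups were on slide 1 and both injured groups on slide 2, each slide read in its own scan, so slide and injury cannot be told apart in the comparisons of day 4 or day 7 with normal podocytes. The comparison of day 7 with day 4 and that of podocyte with glomerular RNA each lie within 1 slide. In these bulk samples fewer tagged cells and less RNA per cell cannot be told apart.

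Levels below are log2 processed intensities relative to the 75th percentile of the same array, and differences are log2 differences from limma with their standard error (SE, n = 4 arrays per group). A gene was called when its adjusted p over the 14565 genes was under 0.05. After LMB2, 6 of the 9 tested genes were higher at day 4, against 12.4% of all genes called higher, and 0 were lower, against 19.9% called lower. At day 7 all 9 were higher (21.6% of all genes higher) and 0 lower (36.7% of all genes lower). At an unadjusted p under 0.05 the counts were the same at both times. Their median log2 difference was 1.04 at day 4 and 2.66 at day 7, where the medians over all genes tested were -0.12 and -0.14. Because of how the set was drawn up, these counts and medians are a description. The comparisons share the normal podocyte arrays. Over the alternative analyses 7 to 9 of the 9 genes were higher at day 7. The day 7 calls of Nfkb1, Rela and Nfkbiz were each lost in some of them, as given below. With each array's median over all probes set to 0 in place of its 75th percentile, the medians of all genes became -0.39 at day 4 and -0.47 at day 7, and the calls over all genes split as 1183 higher and 5826 lower at day 4, against 1799 and 2899, and as 1967 higher and 7392 lower at day 7, against 3152 and 5349.

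**Figure D1:**
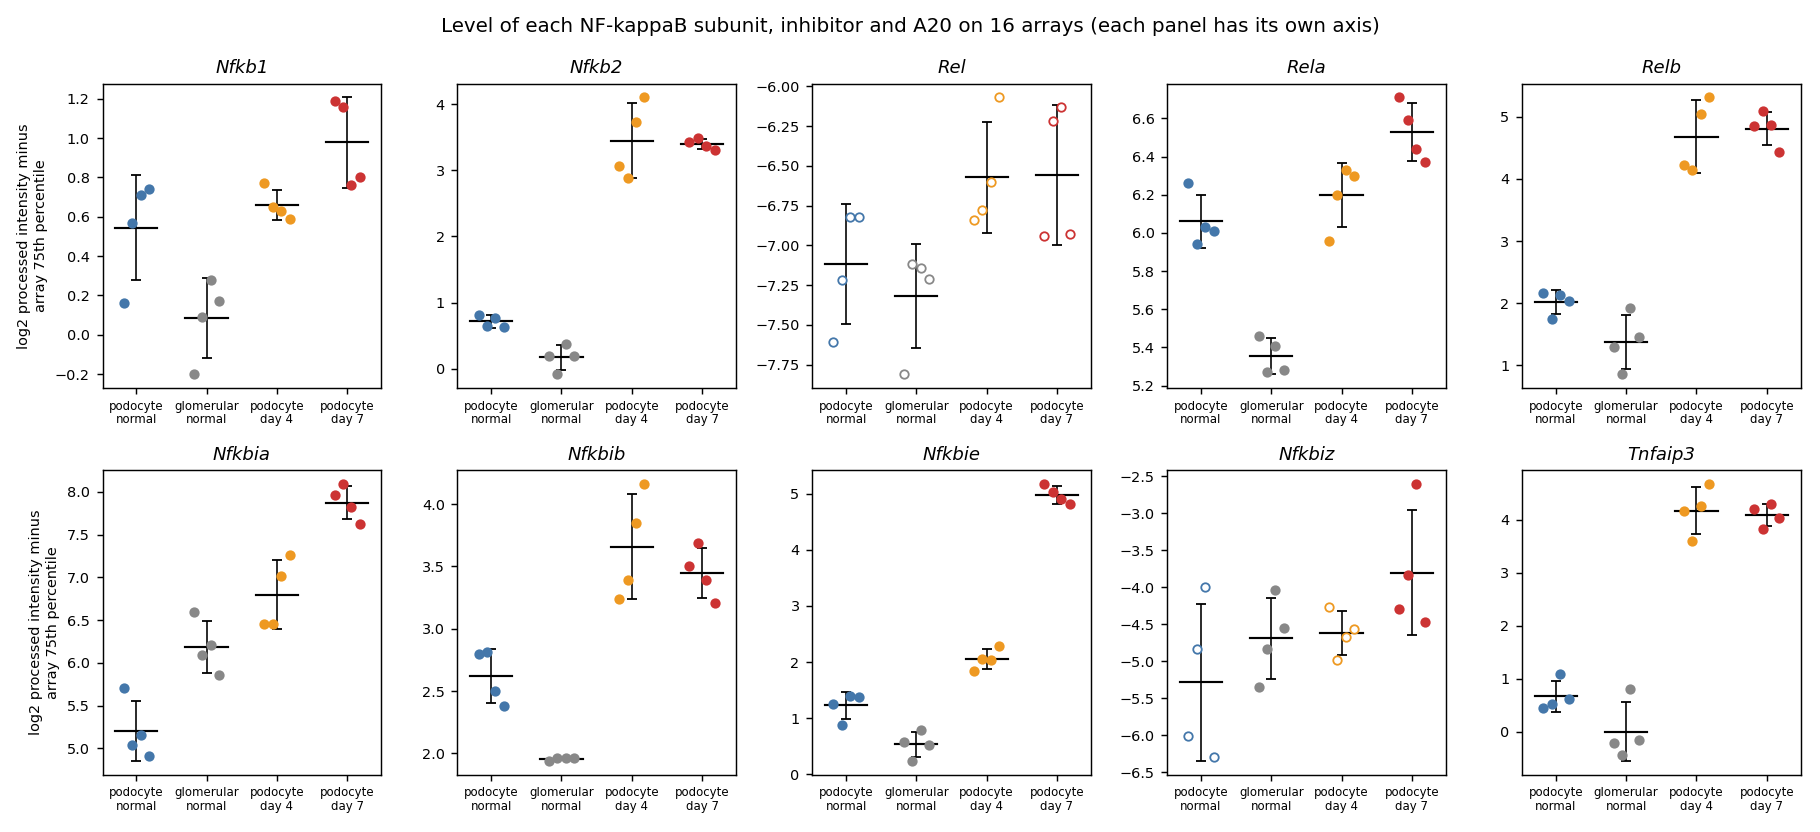
Level of each of the 10 genes (vertical axis, log2 processed intensity minus the 75th percentile of the array) on each array of the 4 groups; lines are means, bars are SD (n = 4), and open points mark groups in which the probe was not well above background on all 4 arrays. Nfkb2, Relb and Tnfaip3 stand high on all 8 injured arrays, Nfkbie reaches its high level (4.81 to 5.17) at day 7, and Rela spans only 5.27 to 6.71 over all 16 arrays.

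The subunits of the second branch rose about 6-fold and were already high at day 4. Nfkb2 encodes the precursor that is cut to a DNA-binding subunit. Its level was 0.82, 0.64, 0.77 and 0.63 on the normal podocyte arrays, 3.07, 2.88, 3.73 and 4.10 at day 4 and 3.43, 3.48, 3.36 and 3.31 at day 7. Every injured array lay above every normal array, and replicates 3 and 4 of day 4 were the highest of all. Nfkb2 rose 6.64-fold at day 4 (log2 2.73 ± 0.21, adjusted p = 1.9e-07) and 6.41-fold at day 7 (2.68 ± 0.21, adjusted p = 1.1e-07).

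Relb encodes the partner of the cut Nfkb2 product. It read 2.16, 1.74, 2.13 and 2.04 on normal podocyte arrays, 4.23, 4.14, 5.04 and 5.31 at day 4 and 4.85, 5.09, 4.86 and 4.44 at day 7. The order of the day 4 arrays was the one seen for Nfkb2, with replicates 3 and 4 on top, and the injured arrays did not overlap the normal ones. Relb rose 6.33-fold at day 4 (2.66 ± 0.27, adjusted p = 3.6e-06) and 6.94-fold at day 7 (2.80 ± 0.27, adjusted p = 8.4e-07). Its other probe gave log2 differences of 2.63 and 2.82.

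Rela encodes the main activating subunit of the branch that the IKK complex controls. Its level was 6.26, 5.94, 6.03 and 6.01 on normal podocyte arrays, 5.96, 6.20, 6.33 and 6.30 at day 4 and 6.71, 6.59, 6.44 and 6.37 at day 7. Day 4 overlapped normal podocytes, and day 7 lay just above both. The difference was 0.14 ± 0.11 at day 4 (adjusted p = 0.36), and at day 7 Rela rose by 0.47 ± 0.11 (1.38-fold, adjusted p = 0.0018). With the array median as the scale the day 4 value turned to -0.13 and the day 7 call was lost (0.15, adjusted p = 0.43), while after normexp correction with quantile normalization the day 4 value was called (0.24, adjusted p = 0.031).

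Nfkb1 encodes the precursor of the usual partner of Rela. It was at 0.16, 0.57, 0.71 and 0.74 on normal podocyte arrays, 0.77, 0.65, 0.63 and 0.59 at day 4 and 1.19, 1.16, 0.76 and 0.80 at day 7. The day 4 arrays overlapped the normal ones, and the lowest day 7 array stood 0.76 against a highest normal array of 0.74. Nfkb1 differed by 0.11 ± 0.15 at day 4 (adjusted p = 0.59) and rose by 0.43 ± 0.15 at day 7 (1.35-fold, adjusted p = 0.020). The other probe of Nfkb1 gave -0.17 at day 4 and -0.15 at day 7, and averaging the probes turned the day 4 value to -0.03 and ended the day 7 call (0.14, adjusted p = 0.29). The day 7 call was also lost with the array median (0.11), where the day 4 value was -0.15. It was lost as well with only the 8 arrays compared (adjusted p = 0.06) and without replicate 1 of normal podocytes (0.30; day 4 then -0.01) or replicate 1 (0.36) or 2 (0.37) of day 7.

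Rel encodes the subunit best known from lymphocytes. Its probe ranged from -7.81 to -6.07 over the 16 arrays and was never well above background, so it has no fold and no test.

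Among the inhibitors, Nfkbia and Nfkbie rose further between day 4 and day 7, and the difference of Nfkbib between the times (-0.22) was not called. Nfkbia encodes IkappaB-alpha, the inhibitor that is degraded and made anew fastest. Its level was 5.71, 5.04, 5.16 and 4.91 on normal podocyte arrays, 6.45, 6.46, 7.02 and 7.26 at day 4 and 7.96, 8.09, 7.82 and 7.63 at day 7. The podocyte groups formed 3 steps without overlap. Nfkbia rose 3.01-fold at day 4 (1.59 ± 0.22, adjusted p = 7.6e-05) and 6.34-fold at day 7 (2.66 ± 0.22, adjusted p = 2e-07).

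Nfkbie encodes IkappaB-epsilon, a slower inhibitor of Rela and Rel dimers. It read 1.25, 0.88, 1.40 and 1.38 on normal podocyte arrays, 1.84, 2.05, 2.04 and 2.29 at day 4 and 5.17, 5.03, 4.91 and 4.81 at day 7. No array of day 4 reached normal or day 7 values, and the day 7 arrays lay within 0.36 of each other. Nfkbie rose 1.77-fold at day 4 (0.83 ± 0.14, adjusted p = 0.0006) and 13.5-fold at day 7 (3.75 ± 0.14, adjusted p = 2.2e-10), the largest day 7 difference of the 9 genes.

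Nfkbib encodes IkappaB-beta, an inhibitor of the same dimers as IkappaB-alpha. Its values were 2.80, 2.81, 2.50 and 2.38 on normal podocyte arrays, 3.24, 3.39, 3.85 and 4.16 at day 4 and 3.50, 3.69, 3.39 and 3.21 at day 7. Both injured groups lay above the normal group and overlapped each other. Nfkbib rose 2.06-fold at day 4 (1.04 ± 0.18, adjusted p = 0.00048) and 1.77-fold at day 7 (0.82 ± 0.18, adjusted p = 0.0011). Its other probes gave 0.57 and 0.79 at day 4 and 0.76 and 0.41 at day 7. With the array median as the scale the day 7 value was 0.50 (adjusted p = 0.045).

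Nfkbiz encodes IkappaB-zeta, a nuclear protein that helps switch on a subset of target genes. It was dim, well above background on 1 of 4 normal podocyte arrays, 4 of 4 glomerular arrays, 1 of 4 day 4 arrays and 4 of 4 day 7 arrays, so it passed the filter only through the glomerular and day 7 groups. The values were -6.01, -4.84, -4.00 and -6.29 on normal podocyte arrays, -4.27, -4.98, -4.67 and -4.56 at day 4 and -4.30, -3.84, -2.61 and -4.47 at day 7. All 3 groups overlapped. The difference was 0.66 ± 0.49 at day 4 (adjusted p = 0.32) and 1.48 ± 0.49 at day 7 (adjusted p = 0.017). The day 7 value shrank to 0.49 after normexp correction at the usual scaling and to 0.26 when quantile normalization followed it, where the call was lost (adjusted p = 0.079). The call was also lost with only the 8 arrays compared (adjusted p = 0.059) and without replicate 1 (1.24) or 4 (1.15) of normal podocytes or replicate 3 of day 7 (1.08).

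Tnfaip3 encodes A20, which takes apart ubiquitin chains upstream of IKK and so damps the pathway. Its level was 0.45, 0.53, 1.1 and 0.62 on normal podocyte arrays, 4.16, 3.60, 4.26 and 4.67 at day 4 and 4.20, 3.83, 4.30 and 4.04 at day 7. Injured and normal arrays did not overlap, and the injured groups did. Tnfaip3 rose 11.3-fold at day 4 (3.49 ± 0.26, adjusted p = 1.9e-07), the largest day 4 difference of the 9 genes, and 10.7-fold at day 7 (3.42 ± 0.26, adjusted p = 1.1e-07). The rises of Nfkb2, Relb, Nfkbia, Nfkbib, Nfkbie and Tnfaip3 at both times kept their call in all 18 alternative analyses run. In the same comparisons 2 of 12 leukocyte markers tested were higher at day 4 and 3 higher and 1 lower at day 7, with medians of 0.19 and 0.35. Ptprc, which encodes the pan-leukocyte protein CD45, was well above background on 1 normal podocyte array, 0 arrays at day 4 and 1 at day 7. Of 10 mesangial and smooth muscle markers 4 were higher at day 7, and the level of that list was 0.99 to 1.59, against -0.26 to 0.42 on normal podocyte arrays. The part of these markers in the rises was not tested.

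**Figure D2:**
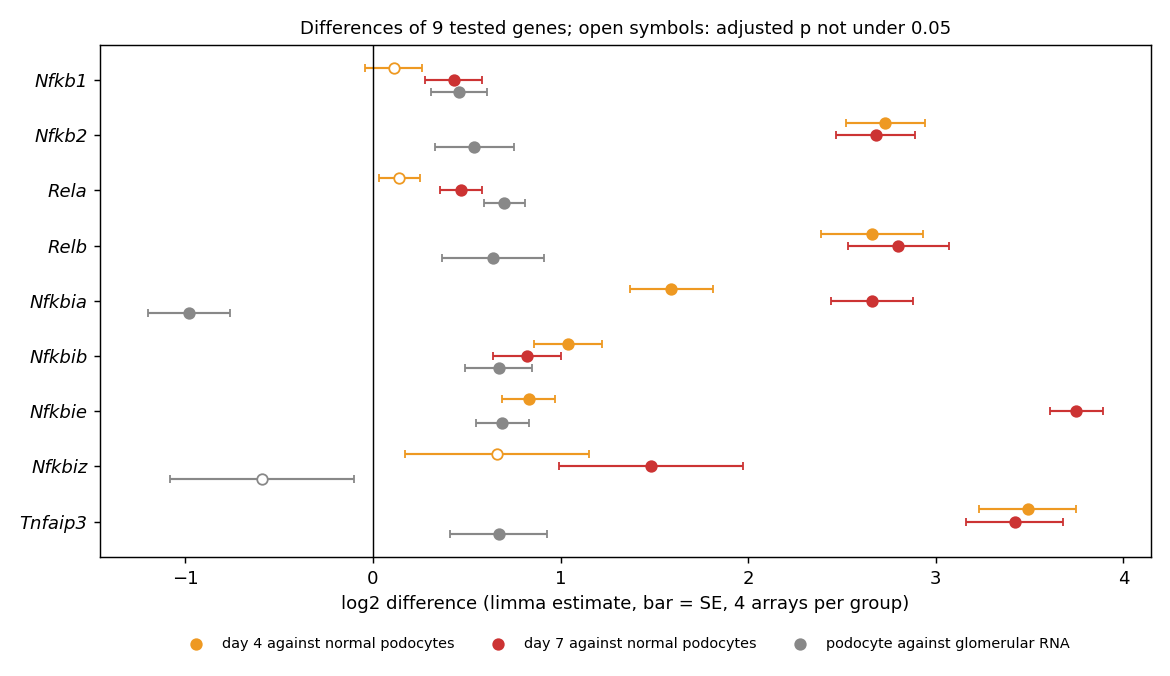
Log2 difference (horizontal axis, limma estimate with SE) of the 9 tested genes at day 4 and at day 7 against normal podocytes and in podocyte against glomerular RNA; open symbols have an adjusted p not under 0.05. Nfkb2, Relb and Tnfaip3 have day 4 and day 7 values close together (2.73 and 2.68 for Nfkb2), Nfkbia and Nfkbie move up from day 4 to day 7 (0.83 to 3.75 for Nfkbie), and only Nfkbia is called lower in podocyte than in glomerular RNA (-0.98).

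The difference between the injury times was tested directly, within 1 slide. Of the 9 genes 3 were higher at day 7 than at day 4, against 13.2% of all genes, and 0 were lower, against 20.7% of all genes. At an unadjusted p under 0.05 the counts were 4 and 0. Nfkbie rose 7.59-fold between the times (2.92 ± 0.14, adjusted p = 1.8e-08) and Nfkbia 2.11-fold (1.08 ± 0.22, adjusted p = 0.002). Rela rose by 0.33 ± 0.11 (adjusted p = 0.029). For Nfkb2 (-0.05 ± 0.21, adjusted p = 0.87), Relb (0.13 ± 0.27, adjusted p = 0.74) and Tnfaip3 (-0.08 ± 0.26, adjusted p = 0.85) the difference was smaller than its SE. Nfkb1 (0.32 ± 0.15, adjusted p = 0.11), Nfkbib (-0.22 ± 0.18, adjusted p = 0.37) and Nfkbiz (0.82 ± 0.49, adjusted p = 0.21) were not called. The call of Rela was lost with the array median (0.27, adjusted p = 0.2), with only the 8 arrays compared (adjusted p = 0.069), and without replicate 1 (0.25) or 2 (0.33) of day 4 or replicate 1 (0.27) or 2 (0.31) of day 7. Nfkb1 was called after normexp correction with quantile normalization (0.37, adjusted p = 0.032).

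Podocyte RNA was compared with glomerular RNA of uninjured mice to place the genes before injury. Of the 9 genes 7 were higher in podocyte RNA, where 51.6% of all genes were called higher, and 1 was lower, where 27.5% were called lower, so these counts are near those of genes in general. Their median was 0.64, against 0.38 over all genes. Among the subunits, Rela was higher by 0.70 ± 0.11 (adjusted p = 3e-05), with glomerular levels of 5.46, 5.27, 5.41 and 5.28, all below every podocyte array. Nfkb2 (0.54 ± 0.21, adjusted p = 0.026; glomerular levels of -0.08 to 0.38), Relb (0.64 ± 0.27, adjusted p = 0.039; 0.86 to 1.92) and Nfkb1 (0.46 ± 0.15, adjusted p = 0.010; -0.20 to 0.28) were higher as well. The groups overlapped for Relb and Nfkb1 and did not for Nfkb2. Same-numbered arrays of these groups deviated together, as described below. For both Relb and Nfkb1 each podocyte array was above the glomerular array of its own number.

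Nfkbia was the exception: its glomerular levels of 6.59, 6.09, 6.21 and 5.86 all lay above the normal podocyte levels. It was lower in podocyte RNA by 0.98 ± 0.22 (log2 -0.98, 1.98-fold, adjusted p = 0.00082). Nfkbie (0.69 ± 0.14, adjusted p = 0.00047; glomerular levels of 0.24 to 0.79) and Nfkbib (0.67 ± 0.18, adjusted p = 0.0029; 1.94 to 1.96) were higher without overlap. Tnfaip3 was higher by 0.67 ± 0.26 (adjusted p = 0.029), although glomerular replicate 3 (0.81) overlapped the podocyte arrays and the other glomerular arrays were between -0.43 and -0.15. Each podocyte array was above the glomerular array of its own number here too. Nfkbiz was not called (-0.59 ± 0.49, adjusted p = 0.27), and its sign turned after normexp correction with the 75th percentile (0.05). With quantile normalization, alone or after normexp correction, 3 of the 9 were higher, because the calls of Nfkb2 (0.43 and 0.37), Relb (0.37 and 0.39), Nfkbib (0.36 and 0.31) and Tnfaip3 (0.59 and 0.54) were lost, and the median over all genes moved from 0.38 to 0.26 or 0.17. Without replicate 3 of normal podocytes or replicate 2 of the glomerular group 4 were higher. Nfkb2, Relb and Tnfaip3 lost their call in both of these fits, at 0.52, 0.60 and 0.53 without the podocyte array and 0.45, 0.46 and 0.53 without the glomerular one. Relb lost it also without replicate 1 (0.59) or 4 (0.63) of normal podocytes or replicate 1 (0.61) or 4 (0.66) of the glomerular group, Tnfaip3 without replicate 1 (0.60) or 4 (0.62) of the glomerular group, and Nfkb2 without replicate 1 of normal podocytes (0.51). Relb lost it too with no filter on dim probes (0.64, adjusted p = 0.054) and with its probes averaged (0.59, adjusted p = 0.051). These fits took no account of the same-numbered arrays. With the replicate number as a block none of these calls was lost.

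Over the 4 groups, the mean levels of Nfkb2, Relb and Tnfaip3 ran from glomerular through normal podocyte RNA to the injured podocytes, and day 4 and day 7, the top neighbours in each order, did not differ beyond their spread. For Relb and Tnfaip3 the glomerular and normal podocyte arrays overlapped as well. For Nfkbie the order was glomerular (mean 0.53), normal podocyte (1.23), day 4 (2.05) and day 7 (4.98), with no overlap between neighbours. Nfkbia ran from normal podocyte (5.21) through glomerular (6.19) and day 4 (6.80) to day 7 (7.87), and the glomerular range of 5.86 to 6.59 overlapped that of day 4, 6.45 to 7.26. For Rela, normal podocytes (6.06) and day 4 (6.20) were the neighbours that did not differ beyond their spread, between glomerular RNA (5.36) and day 7 (6.53).

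Likeness of pattern was measured as the root mean square difference between genes over the 16 arrays, each gene centred on its own mean. The nearest genes were sought among the 14565 genes with clone identifiers (Rik, Gm and LOC names) left out. The gene nearest to Nfkb2 was Relb and the gene nearest to Relb was Nfkb2, at 0.178 log2 units. Next came Kdm2b (0.198 from Nfkb2 and 0.269 from Relb), then Phldb1 for Nfkb2 (0.303) and Tank for Relb (0.337). Tnfaip3 was 0.488 from Nfkb2 and 0.462 from Relb, and Nfkb2 was 1.19 from Rela and 1.29 from Nfkb1. The genes most like Tnfaip3 were Clk1 (0.318), Apol7a (0.337) and Akain1 (0.37).

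The inhibitors each had other neighbours. Those of Nfkbia were Pomc (0.26), Rnf227 (0.291) and Sdcbp2 (0.318), and those of Nfkbib were Zswim8 (0.117), Cep89 (0.163) and Zfp110 (0.173). Nfkbie was nearest to Syt12 (0.396), Fgf21 (0.419) and Tecta (0.435). Nfkbiz was nearest to Tlr6 (0.504), Tctex1d4 (0.533) and Zbtb46 (0.539). Between inhibitors the distance ran from 0.786 for Nfkbia and Nfkbib to 1.44 for Nfkbie and Nfkbiz, and Nfkbib was 0.403 from Rela. All these genes share the same arrays, and the distances carry no test.

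The rest of the pathway was read from lists by role. Of 13 ligands listed 12 had a probe and 7 were tested. At day 4, 3 of them were higher and 0 lower (3 and 0 at an unadjusted p under 0.05), against 12.4% and 19.9% of all genes. At day 7, 3 were higher and 1 lower, against 21.6% and 36.7% of all genes. The medians of the 7 ligands were 0.26 and 1.07. Among the 3 ligands above background on all 16 arrays, 1 was higher and 2 lower at day 7 (median -0.35), and the day 7 median of the 7 was 0.38 after normexp correction at the usual scaling. Ltb encodes lymphotoxin beta, a membrane ligand of the second branch. Its level was -3.45, -3.84, -3.23 and -5.44 on normal podocyte arrays (3 of 4 above background), 1.30, 0.69, 1.55 and 1.82 at day 4 and 0.06, 0.72, 0.35 and -0.16 at day 7. All injured arrays were above all normal podocyte ones, and Ltb rose by 5.33 ± 0.44 at day 4 (adjusted p = 4.1e-07) and 4.23 ± 0.44 at day 7 (adjusted p = 1.7e-06). Over the alternatives these values of Ltb shrank to as little as 3.20 and 2.29, both still called. Lta, its soluble relative, was above background on no normal and no day 4 array, so its call at day 4, 1 of the 3 counted above, carries no fold. It entered the test only through day 7, where it was above background on all 4 arrays, so that it had to differ there, and was at least 2.66-fold higher at day 7 (adjusted p = 5.1e-06; measured means -3.43 and -6.10).

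A bound of this kind compares the mean of the bright group with a floor for the dim group, taken on each dim array as the lowest signal of any probe well above background, or as the dim signal itself where that is higher. Such bounds hold for the main analysis only. Over the alternatives the log2 difference of Lta at day 7 shrank to as little as 0.42, inside its bound. The B cell ligand Tnfsf13b was called at 0.70 ± 0.22 at day 4 and 0.59 ± 0.22 at day 7, and both calls were lost with quantile normalization (0.45 and 0.29) or the array median (0.44 and 0.27). They were lost also without replicate 1 (0.66 and 0.56) or 2 (0.68 and 0.57) of normal podocytes, at day 4 without its replicate 1 (0.69) or 4 (0.52) and at day 7 without its replicate 1 (0.42) or 3 (0.58). Tnfsf12, the ligand of Tnfrsf12a, was called lower at day 7 (-0.35 ± 0.12), a call lost with quantile normalization (-0.21) and without replicate 3 (-0.29) or 4 (-0.34) of normal podocytes or replicate 4 of day 7 (-0.27). Tnf itself was above background on 0 normal, 1 day 4 and 2 day 7 arrays and was not tested. Il1b, interleukin 1 beta, and Il33, an alarm cytokine, were at least 11.1-fold and 15.9-fold lower in podocyte than in glomerular RNA (adjusted p = 9.7e-06 and 1.1e-06; measured means -6.27 against -1.38 and -5.88 against -0.84). Il1b and Il33 entered the test only through the glomerular group, so that they had to differ there. Over the alternatives their log2 differences shrank to as little as -1.54 and -1.80, inside these bounds. Of the 7 ligands 2 were higher and 4 lower in podocyte against glomerular RNA (51.6% and 27.5% of all genes).

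Of 22 receptors 17 were tested, 2 higher and 2 lower at day 4 (12.4% and 19.9% of all genes). At day 7, 7 were higher and 3 lower (21.6% and 36.7% of all genes). The medians of the receptors were -0.06 and 0.19. With the array median as the scale the balance turned, to 2 higher and 6 lower at day 4 and 6 higher and 7 lower at day 7 (median -0.13), and the day 7 median was -0.02 among the 14 above background on all 16 arrays. Tnfrsf12a, the receptor for TWEAK, read 3.74, 3.31, 3.72 and 2.87 on normal podocyte arrays, 4.94, 5.10, 5.81 and 5.88 at day 4 and 6.79, 6.83, 7.12 and 6.87 at day 7. The podocyte groups did not overlap, and Tnfrsf12a rose by 2.02 ± 0.24 and then 3.49 ± 0.24 (adjusted p = 2e-05 and 3.7e-08). Tlr2, a sensor of bacterial lipopeptides, rose by 0.91 ± 0.21 at day 4 (adjusted p = 0.0043) and 3.83 ± 0.21 at day 7 (adjusted p = 4e-09), and the day 4 call was lost after normexp correction with quantile normalization (0.29). At day 7 Cd40 rose by 2.03 ± 0.31 (3 of 4 normal podocyte arrays above background) and Tlr4, the endotoxin receptor, by 1.25 ± 0.24. Over the alternatives the day 7 values shrank to as little as 2.32 for Tlr2, 0.60 for Cd40 and 0.59 for Tlr4, all still called. The lymphotoxin receptor gene Ltbr fell by 0.39 ± 0.11 at day 4. Tnfrsf1a, the main TNF receptor, fell by 0.38 ± 0.11, a call lost without replicate 1 of normal podocytes (-0.33) or replicate 1 of day 4 (-0.31).

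In podocyte against glomerular RNA 5 receptors were higher and 11 lower (51.6% and 27.5% of all genes). The median of the receptors was -1.08, with Cd40 at -5.09 ± 0.31 and Tlr2 at -3.55 ± 0.21. Over the alternatives these 2 values shrank to as little as -2.82 and -2.09, both still called. Tlr2 was thus low in normal podocyte RNA (-3.58, -3.08, -2.98 and -3.78) and at day 7 (0.39, 0.59, 0.03 and 0.90) near its glomerular levels (0.15, 0.23, 0.46 and -0.06). Endothelial and leukocyte markers are also low in the podocyte preparation, and their part in these differences was not tested.

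Kinases of the pathway moved in both directions. Of 18 listed 17 were tested, 3 higher and 3 lower at day 4 (12.4% and 19.9% of all genes). At day 7, 4 were higher and 6 lower (21.6% and 36.7% of all genes), so these counts are near those of genes in general. The medians of the kinases (-0.08 and -0.21) were close to the medians of all genes. Map3k14, which encodes NIK, was at -1.86, -1.35, -1.40 and -1.48 on normal podocyte arrays, -0.29, -0.41, 0.28 and 0.54 at day 4 and 1.94, 1.38, 1.54 and 1.83 at day 7. The groups rose in steps without overlap, by 1.55 ± 0.20 at day 4 (adjusted p = 5e-05) and 3.20 ± 0.20 at day 7 (adjusted p = 1.8e-08). Map3k8, a kinase bound to the Nfkb1 precursor, rose by 1.57 ± 0.27 (adjusted p = 0.00062) and 3.07 ± 0.27 (adjusted p = 4.6e-07). Over the alternatives these values of Map3k8 shrank to as little as 0.76 and 1.94, both still called.

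Ikbkb, which encodes a catalytic IKK kinase of the other branch, moved the opposite way. Ikbkb read 2.42, 2.48, 2.34 and 2.32 on normal podocyte arrays, 1.94, 1.87, 1.46 and 1.57 at day 4 and 1.41, 1.38, 1.35 and 1.42 at day 7. All injured arrays were below all normal ones, and Ikbkb fell by 0.68 ± 0.11 (adjusted p = 0.00026) and 1.00 ± 0.11 (adjusted p = 2.6e-06). Chuk, which encodes another catalytic IKK kinase, was not lower at either time (0.13 ± 0.12, adjusted p = 0.45, and 0.34 ± 0.12, adjusted p = 0.031). Irak4, a kinase below the Toll-like and interleukin 1 receptors, fell by 0.72 ± 0.10 and 1.08 ± 0.10 (adjusted p = 9.6e-05 and 7.8e-07). With its probes averaged the day 4 call of Irak4 was lost (-0.25). In podocyte against glomerular RNA 10 kinases were higher and 5 lower (51.6% and 27.5% of all genes), led by Ikbkg, the regulatory IKK subunit (1.58 ± 0.11, adjusted p = 1.1e-08), and Map3k14 (-2.82 ± 0.20, adjusted p = 1.7e-08). With the array median as the scale the counts were 3 higher and 9 lower at day 4 and 2 higher and 12 lower at day 7.

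**Figure D3:**
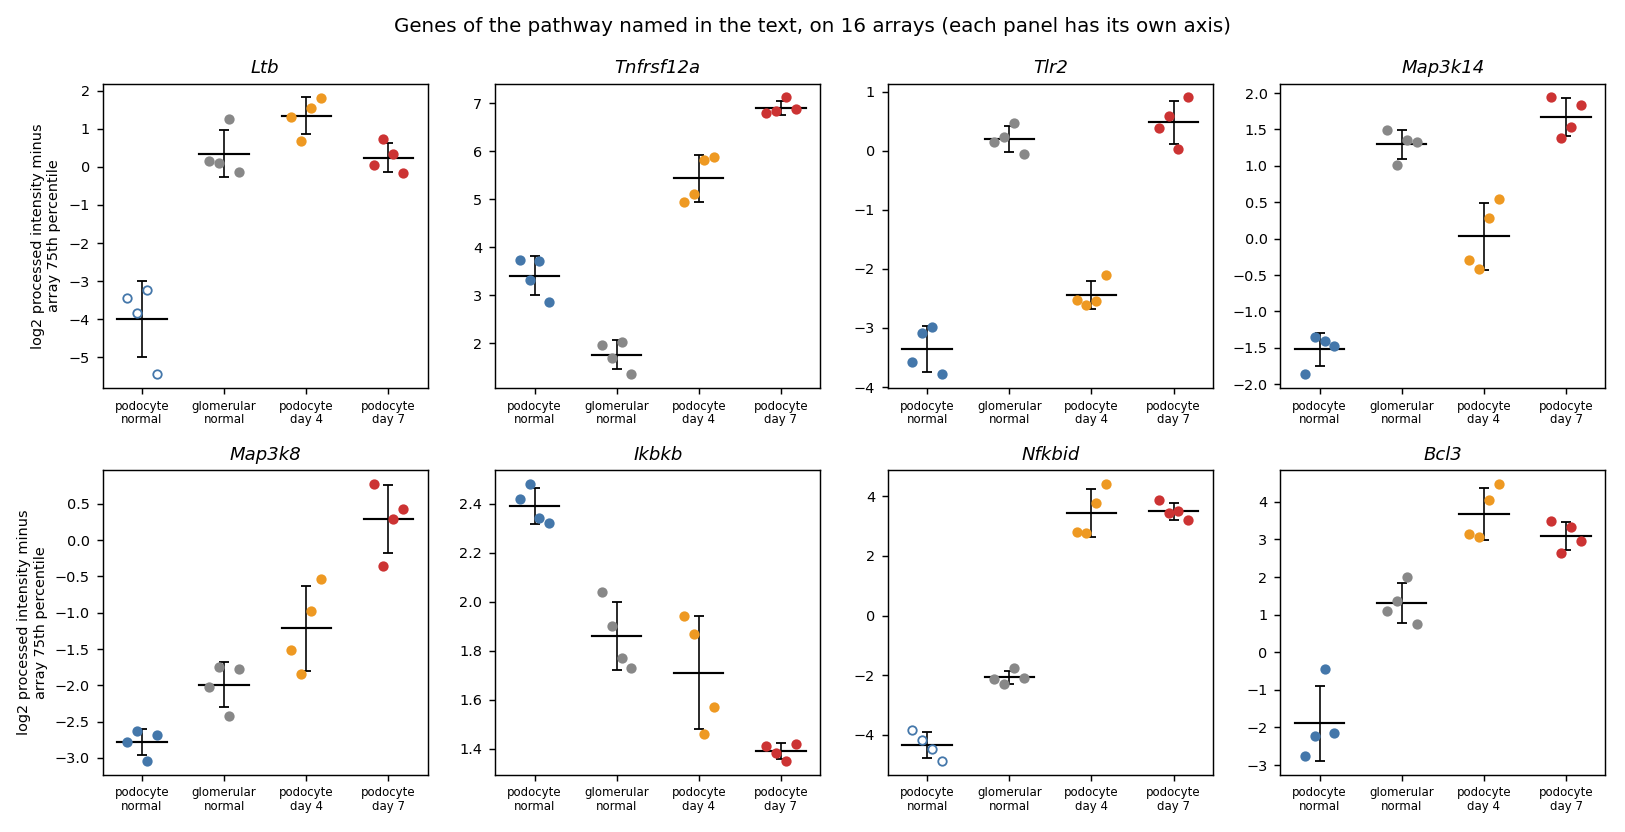
Level of 8 pathway genes (vertical axis, log2 processed intensity minus the 75th percentile of the array) on each array of the 4 groups; lines are means, bars are SD (n = 4), and open points mark groups not above background on all 4 arrays. Map3k14, Map3k8, Tlr2 and Tnfrsf12a step up from day 4 to day 7, Ltb, Nfkbid and Bcl3 are already high at day 4, and Ikbkb goes down from between 2.32 and 2.48 in normal podocytes to between 1.35 and 1.42 at day 7.

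Adaptors, ubiquitin enzymes and other regulators moved in both directions. Of 36 listed 35 were tested, 8 higher and 5 lower at day 4 (12.4% and 19.9% of all genes) and 11 higher and 12 lower at day 7 (21.6% and 36.7% of all genes), each with a median of -0.10. With the array median as the scale 14 were lower at day 4 and 19 at day 7. The largest rises in this list were those of Nfkbid and Bcl3, which encode nuclear IkappaB proteins. Nfkbid, which encodes IkappaB-NS, read -3.86, -4.19, -4.50 and -4.88 on normal podocyte arrays (2 of 4 above background), 2.82, 2.76, 3.79 and 4.41 at day 4 and 3.89, 3.44, 3.50 and 3.20 at day 7. Its rise was 7.80 ± 0.32 at day 4 and 7.87 ± 0.32 at day 7 (adjusted p = 5.6e-10 and 3.9e-10), and 5.56 and 5.59 after normexp correction with the 75th percentile.

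Bcl3, a coactivator that binds the Nfkb1 and Nfkb2 products, was at -2.75, -2.22, -0.45 and -2.14 on normal podocyte arrays, 3.14, 3.07, 4.04 and 4.47 at day 4 and 3.48, 2.63, 3.32 and 2.95 at day 7. It rose by 5.57 ± 0.45 and 4.99 ± 0.45 (adjusted p = 3.7e-07 and 5.1e-07). Traf5, an adaptor of TNF family receptors, rose by 2.96 ± 0.24 and 2.94 ± 0.24. Birc3, a ubiquitin ligase that restrains NIK, rose by 2.40 ± 0.19 and 2.79 ± 0.19. In podocyte against glomerular RNA 22 of the 35 were higher and 5 lower (51.6% and 27.5% of all genes), with Bcl3 at -3.19 ± 0.45. With quantile normalization those counts were 16 and 9.

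Genes known as NF-kappaB targets were the list with the highest medians at both times. This list was drawn up with results for several of its genes in these arrays known, so its direction is not independent evidence. Of 45 targets 37 were tested, 16 higher and 2 lower at day 4 (median 0.93), against 12.4% and 19.9% of all genes. At day 7, 24 were higher and 2 lower, against 21.6% and 36.7% of all genes. The day 7 median was 2.20, or 2.13 when the 7 genes with a lower bound alone take that bound. The filter favours targets that are bright in 1 group only: among the 26 above background on all 16 arrays, 10 were higher at day 4 (median 0.29) and 16 at day 7 (median 1.15). The medians were also smaller after normexp correction with the 75th percentile, at 0.40 and 1.12.

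Among the targets, the neutrophil chemokine Cxcl1 rose by 7.66 ± 0.46 and 7.31 ± 0.46, from levels of -4.38 to -3.24 on normal podocyte arrays to 2.78 to 4.57 at day 4 and 3.20 to 3.71 at day 7. Cxcl10 rose by 4.96 ± 0.30 and then 6.73 ± 0.30, and Cxcl16, a membrane-bound chemokine, by 5.69 ± 0.23 at day 4. Ccl2, the monocyte chemokine, was above background on all 4 glomerular arrays but on no normal podocyte or day 4 array. It was at least 21.4-fold higher at day 7 than in normal podocytes (adjusted p = 3.9e-07; measured means -0.43 and -6.51). Its day 7 arrays were spread, at 0.65, 0.95, -1.90 and -1.40. Saa3, an acute phase gene, was at least 18.6-fold higher at day 7 (adjusted p = 3.3e-09; measured means -0.63 and -6.75), and the stress gene Gadd45b rose by 4.92 ± 0.27 at day 4. Icam1, an adhesion molecule for leukocytes that was named after its values were seen, had a higher bound than either, at least 38.1-fold at day 7 (adjusted p = 8.3e-09; measured means 0.41 and -5.58). Over the alternatives the day 7 log2 difference shrank to as little as 2.26 for Ccl2 and 1.97 for Saa3, inside their bounds. Each of Ccl2, Saa3 and Icam1 was above background on no normal podocyte array. Saa3 was above background on no glomerular array either. It entered the test only through the injured groups, so that it had to differ there.

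Not every target followed. Hif1a and Sod2 were called lower at day 7, and 11 of the 37 were not called. In uninjured mice 3 targets were higher and 20 lower in podocyte than in glomerular RNA, against 51.6% and 27.5% of all genes. The median of the targets was -1.27, or -0.92 with 4 genes at their bound, and 9 were higher and 18 lower with the array median as the scale. A replicate block over these 8 arrays gave 7 higher and 21 lower, and one over all 16 arrays gave 3 and 20. The lowest among them were Bcl2a1d, a survival gene of blood cells, at least 15.1-fold lower (adjusted p = 4.9e-06; measured means -6.68 and -0.92), and Plaur, the urokinase receptor (-4.94 ± 0.27, adjusted p = 1.3e-09). Bcl2a1d entered the test only through the glomerular group, so that it had to differ there. Over the alternatives its log2 difference shrank to as little as -1.88, inside its bound. Between day 4 and day 7, 18 of the 37 targets were higher and 3 lower, against 8 and 2 of the 17 receptors, 2 and 4 of the 17 kinases, 6 and 8 of the 35 regulators and 2 and 1 of the 7 ligands. Over all genes 13.2% were higher and 20.7% lower. Among the 26 targets above background on all 16 arrays, 10 were higher and 3 lower.

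**Figure D4:**
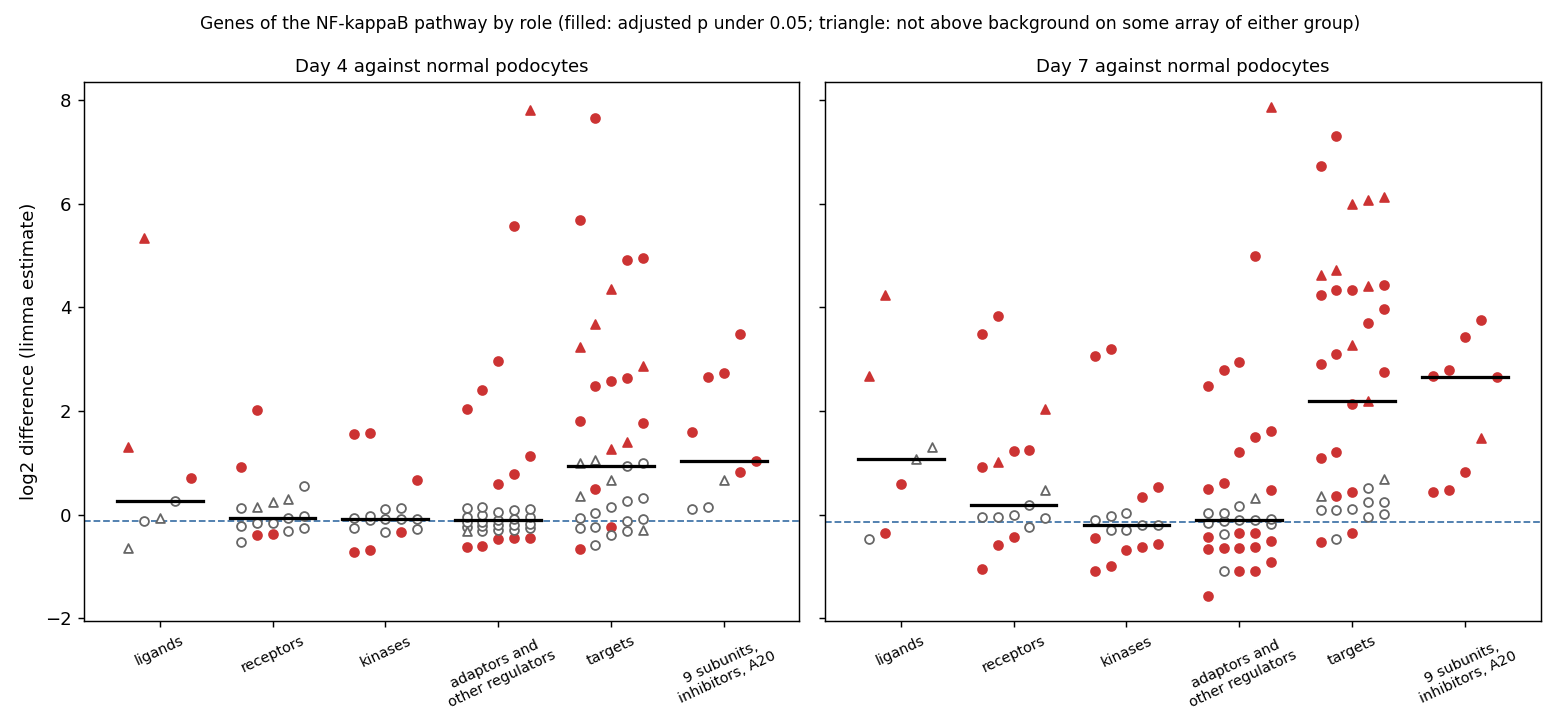
Log2 difference (vertical axis, limma estimate) at day 4 and at day 7 against normal podocytes for each tested gene of the 5 pathway lists and for the 9 subunits, inhibitors and A20; filled symbols have an adjusted p under 0.05, triangles mark genes not well above background on some array of either group, black lines are medians and the dashed line is the median over all genes tested (-0.12 and -0.14). The medians of targets (0.93 and 2.20) and of the 9 genes (1.04 and 2.66) lie above those of kinases (-0.08 and -0.21) and regulators (-0.10 at both times).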

How the data were processed

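Polysome RNA of 16 samples (4 groups of 4) was labelled with Cy3 and hybridised to 1-colour Agilent arrays. Per the file headers and the submitters' processing notes, the authors read them with Agilent Feature Extraction 11.5.1.1, and the deposited files hold a processed intensity per spot on a linear scale, background-subtracted and not normalized between arrays. The authors also deposited a value table on the log2 scale (39430 probes, medians from -3.17 to -2.51 per column), an alternative here. Set against the scanner files, every column equalled 1 array minus a constant, with the scaling unstated, but 6 columns equalled a differently numbered array of their own group (both normal groups, replicates 1 to 3).

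Control and outlying spots were left out and spots of a probe averaged, giving 55681 probes, of which 26582 were matched by accession to 1 symbol of the RefSeq gene table (GRCm38.p6) and 29099 had no name. From log2 of the processed intensity each array's own 75th percentile was subtracted. A probe was kept if some group had it well above background on each of its 4 arrays, and the probe of highest mean stood for its gene. All 16 arrays entered 1 limma fit (limma 3.58.1, R 4.3.3; lmFit and eBayes, group only, 12 residual degrees of freedom), tested on simulated data, with Benjamini-Hochberg adjustment over 14565 genes. Tables were made with Python 3.11.15. The number of arrays limits the precision, and no spot was saturated.

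The members and gene lists were chosen with earlier results of these data known. The text names all members, up to 4 called genes per pathway list with the largest difference at day 4 and at day 7 and up to 2 in podocyte against glomerular RNA, and the 3 nearest genes of each member called with a log2 difference of at least 1 at day 4 or day 7. 1 gene that this rule names is not reported here. Hif1a, Icam1, Sod2, Tnf, Ptprc and Chuk were named after their values were seen. Same-numbered samples deviated together in podocyte against glomerular RNA (correlations of 0.42 to 0.51, each sample best matched to its own number), which the labels do not state, while in the other comparisons the correlations ran from -0.41 to 0.49 and not every pair was above 0.1, so there the numbers were not taken as pairs. Alternatives were other background corrections, scalings, filters, probe rules and sample sets, the value table, the replicate number as a block and each array left out.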

Additional observations from a re-analysis of the deposited data

Results flagged for a closer look

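Among the 36 sets of 4 arrays checked for the 9 genes, 1 held an array far from the others, where chance gives about 1 in 20: Nfkbib on glomerular replicate 1 was at 1.94, and the other 3 were at 1.96, so the gap is small in size. Among 140 sets checked for the other named genes and the marker lists, 8 held such an array. They were Bcl2a1d on replicate 1 of day 4 (-3.93) and replicate 2 of day 7 (-3.66), Cxcl1 on glomerular replicate 3 (-1.06), and Tnfrsf1a on replicate 1 of normal podocytes (3.94) and of day 7 (4.05). The level of the endothelial markers on replicate 4 of day 7 (0.20), the proximal tubule markers on replicate 4 of normal podocytes (1.12) and the leukocyte markers on glomerular replicate 3 (3.98) stood apart as well.

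The response differed between day 4 and day 7, in a direct limma test, for Nfkbie (log2 2.92, adjusted p = 1.8e-08), Nfkbia (1.08, adjusted p = 0.002) and Rela (0.33, adjusted p = 0.029). Only the other genes that the rule named for day 4 or day 7 against normal podocytes were checked in this way. Among them it was higher at day 7 for Tlr2 (2.92), Saa3 (2.46), Cxcl10 (1.77), Cd40 (1.73), Map3k14 (1.64), Map3k8 (1.50), Tlr4 (1.47), Tnfrsf12a (1.47) and Tnfrsf1a (0.33), and at least 17.7-fold for Ccl2 and 2.1-fold for Lta. It was lower at day 7 for Cxcl16 (-1.26), Irak4 (-0.36) and Ikbkb (-0.32). Of the named genes outside this check, Plaur stood at -2.43 to -1.16 at day 4 and 1.76 to 2.31 at day 7. The mean of Icam1 was -1.23 at day 4 and 0.41 at day 7, and Ikbkg was lower at day 7 than at day 4 (-0.59).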

How the results depend on the processing

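The counts of the 9 genes called after LMB2 stayed within 1.5 times under all alternatives run, at 6 to 7 higher at day 4, 7 to 9 at day 7 and 2 to 4 for day 7 against day 4. In podocyte against glomerular RNA 3 were higher with quantile normalization, alone or after normexp correction, and 4 to 7 with each array left out. Values that changed sign were those of Nfkbiz in podocyte RNA (0.05, normexp with the 75th percentile), of Nfkb1 at day 4 (-0.15 with the array median, -0.03 with the mean of its probes, -0.01 to 0.18 with arrays left out), of Rela at day 4 (-0.13, array median) and, for day 7 against day 4, of Nfkb2 (0.07 and 0.01 with quantile normalization after and without normexp; -0.24 to 0.17 with arrays left out), Relb (-0.05 to 0.34 with arrays left out) and Tnfaip3 (-0.27 to 0.09 with arrays left out). None of these values was called, and the cause was not tested. With a replicate block fitted over all 16 arrays, or over the 8 podocyte and glomerular arrays that the numbers pair, 7 genes were again higher in podocyte RNA, and of the calls named in the report only that of Tnfsf13b at day 7 was lost (0.59, adjusted p = 0.05). The slide could not be fitted as a block, since it holds either the normal or the injured groups, and Nfkbiz has no value with the filter for all 16 arrays. Rel, Nfkbiz and other probes near background are limited by signal.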
